A study of Arabidopsis thaliana with 24 samples.

Results

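Aquaporins are the membrane channels through which water crosses plant cell membranes, and Arabidopsis thaliana has 35 loci for them. All 35 were chosen by locus identifier from the family's known membership and were looked up in each table, out of 23865 genes listed in any table. They comprise 13 plasma membrane intrinsic proteins (5 PIP1 and 8 PIP2), 10 tonoplast intrinsic proteins (TIP), 9 NOD26-like intrinsic proteins (NIP) and 3 small basic intrinsic proteins (SIP). Of the 35, 33 were listed at least once in the authors' deposited tables, and TIP5-1 (AT3G47440) and NIP4-1 (AT5G37810) were listed in none. Names are written with a hyphen, as protein databases write them, so that PIP1-1 is the gene whose systematic name has a semicolon in place of the hyphen.

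The data are mRNA sequencing of whole Col-0 seedlings in 24 libraries, with 3 libraries in each of 8 groups that the labels call biological replicates. The groups were the mutant hbi-q after KNO3 or mock, the mutant nlp7-1 after KNO3 or mock, and wild type (WT) after KNO3 with H2O2, after H2O2, after KNO3 or after mock. Every group had grown for 7 days on 7 mM KNO3 and 2 days on nitrogen-free medium before a treatment of 3 h with 10 mM KNO3, 0.5 mM H2O2, both or mock. No values per library were analysed here, so each value below is a group comparison or a mean over groups with the authors' standard error (SE), and the spread between the 3 libraries cannot be shown. Which HBI genes are missing in hbi-q is not in the labels, and the mock salt is called KCl only in names of the deposited data. For NLP7, the gene named by the mutant nlp7-1, the mean of normalized counts was 446 in the authors' deposited table of the nlp7-1 libraries and 1057 in the one that WT and hbi-q share. These were normalized separately, so the levels were not tested. The HBI loci cannot be checked in this way, because WT and hbi-q have 1 base mean per gene in common.

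PIPs sit in the plasma membrane and TIPs in the vacuolar membrane, and both carry water, while some members also pass hydrogen peroxide, urea or ammonia. NIPs carry small uncharged solutes such as boric acid, arsenite or lactic acid, and SIPs are found in the endoplasmic reticulum. In roots, PIPs are known to set much of the hydraulic conductivity, and nitrate supply and H2O2 are both known to alter that conductivity. HBI proteins are bHLH transcription factors and NLP7 is a transcription factor at the head of the nitrate response.

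Sequences are shown for the members on which the results turn. PIP2-2 (AT2G37170) and PIP2-3 (AT2G37180, also known as RD28, a desiccation-responsive gene) lie head to head on chromosome 2, at 15613368 to 15615022 on the minus strand and at 15617635 to 15619155 on the plus strand of TAIR10.1, with 2612 bases between the annotated genes. Their coding sequences are identical at 813 of 858 aligned positions (94.8%), the closest of the 595 pairs of aquaporins. The sources used here do not give how reads that fit both were assigned, so the split of counts between this pair is uncertain. The stretch of 120 coding bases below, from RefSeq, was picked as the one in which the pair differs most. It holds 16 differences, which are in capitals, and the rest of the coding sequence is more alike. It covers coding positions 544 to 663 of PIP2-2 and 415 to 534 of PIP2-3.

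PIP2-2: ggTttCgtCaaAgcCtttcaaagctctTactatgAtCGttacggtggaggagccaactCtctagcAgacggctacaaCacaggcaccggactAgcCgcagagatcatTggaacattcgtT
PIP2-3: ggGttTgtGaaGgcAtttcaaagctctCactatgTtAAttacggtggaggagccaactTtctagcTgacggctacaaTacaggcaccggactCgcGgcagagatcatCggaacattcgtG

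The 250 bases before the annotated start are shown for 3 members called in more than 1 comparison. TIP2-1 (AT3G16240) and TIP2-2 (AT4G17340) both rose with nitrate in WT and are compared below for the mutants. NIP1-1 (AT4G19030) fell at least 2-fold in both mutants and by less than 2-fold in WT. These lie in TAIR10.1 at chr3:5505110-5505359 on the plus strand for TIP2-1, chr4:9698690-9698939 on the plus strand for TIP2-2 and chr4:10423509-10423758 on the minus strand for NIP1-1. Capitals mark a match to CANNTG, the E-box that bHLH factors are known to bind, or to TGACG, the core of TGA factor sites, on either strand.

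TIP2-1: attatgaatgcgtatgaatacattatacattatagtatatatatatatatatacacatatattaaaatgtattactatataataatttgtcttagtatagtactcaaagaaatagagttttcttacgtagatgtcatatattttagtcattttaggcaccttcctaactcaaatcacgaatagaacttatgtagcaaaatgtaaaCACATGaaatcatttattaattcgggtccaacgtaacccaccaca
TIP2-2: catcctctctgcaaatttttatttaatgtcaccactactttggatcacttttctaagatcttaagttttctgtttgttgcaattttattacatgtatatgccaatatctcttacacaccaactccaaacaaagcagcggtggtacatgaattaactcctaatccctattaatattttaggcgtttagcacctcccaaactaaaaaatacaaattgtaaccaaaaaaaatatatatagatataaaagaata
NIP1-1: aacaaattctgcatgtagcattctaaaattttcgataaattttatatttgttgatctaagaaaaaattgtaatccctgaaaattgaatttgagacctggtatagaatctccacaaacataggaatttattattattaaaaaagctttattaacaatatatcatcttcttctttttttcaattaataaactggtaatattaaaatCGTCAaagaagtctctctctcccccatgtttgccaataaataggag

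The window of TIP2-1 held 1 E-box, that of TIP2-2 held no match, and that of NIP1-1 held 1 TGACG match. Over the family, CANNTG stood in 19 of 35 windows (54.3%), against 55.3% of the windows of 27437 protein-coding genes. TGACG stood in 4 of 35 (11.4%), against 18.6% of all windows. CACGTG, the G-box, which is also a CANNTG, stood in 0 of 35 windows against 6.49% of all, and GAATATTC stood in 0 of 35 against 0.86%. These counts describe letters in a short window only.

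The members differed widely in transcript level. Levels between genes were compared as base mean, the authors' mean of normalized counts, per kb of the longest annotated transcript, over the WT and hbi-q libraries together. TIP1-2 (AT3G26520), a vacuolar water channel, was the highest at 11984 per kb, followed by PIP1-2 (AT2G45960), known for water and CO2 transport, at 7776 and TIP1-1 (AT2G36830), the gamma-TIP, at 6930. The order then ran through PIP2-1 at 4571, PIP2-7 at 4190 and PIP1-1 at 4150 per kb, and the order of these neighbours was not tested. Among the PIP2 genes PIP2-8 was the lowest at 175 per kb, and PIP2-3 stood at 528 per kb, against 3257 for its neighbour PIP2-2.

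**Figure D1:**
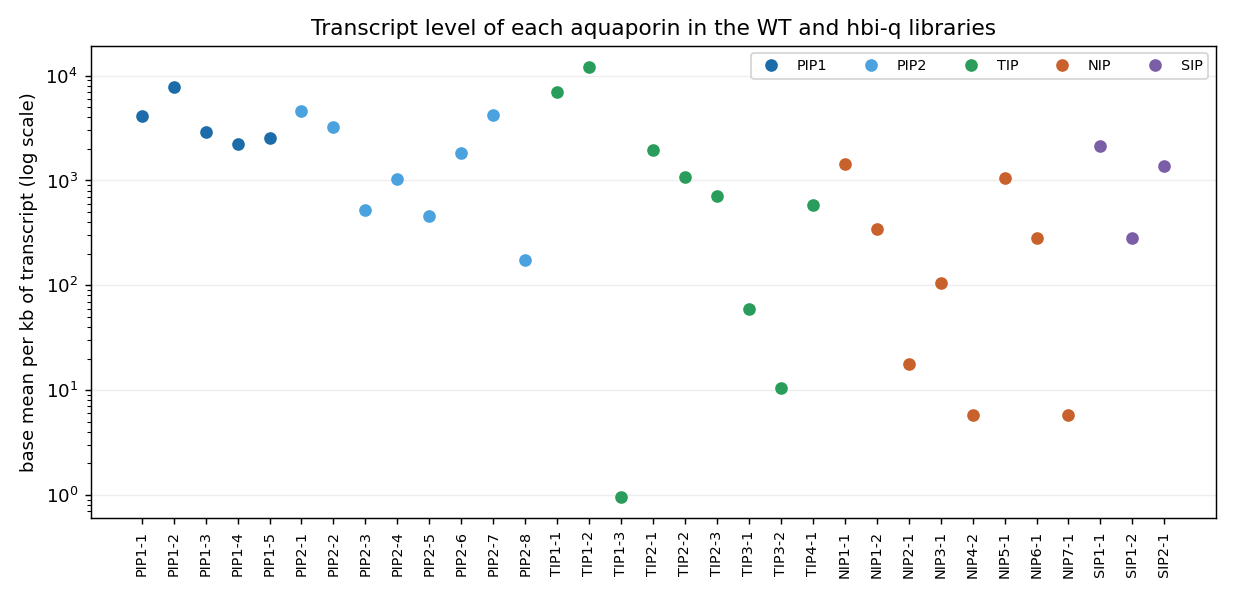
Level of each of the 33 aquaporins listed for the WT and hbi-q libraries, as base mean of normalized counts per kb of the longest transcript, on a log scale, from the authors' deposited table, with 1 point for a gene and colours for the subfamilies. PIP1 genes all lie between 2245 and 7776 per kb, while TIPs and NIPs spread from 0.962 and 5.84 per kb upwards.

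The lowest members include genes known from seed and reproductive tissue. TIP1-3 (AT4G01470), known from pollen, stood at 0.962 per kb, and the pollen and anther genes NIP4-2 (AT5G37820) and NIP7-1 (AT3G06100) stood at 5.84 and 5.85 per kb. The seed vacuole genes TIP3-1 (AT1G73190) and TIP3-2 (AT1G17810) stood at 60.1 and 10.6 per kb. TIP3-1, TIP3-2, TIP1-3 and NIP2-1 (AT2G34390) were not listed in the authors' deposited table for nlp7-1, and TIP1-3 was not listed in the authors' deposited table for KNO3 with H2O2 either. The highest NIP was NIP1-1 at 1432 per kb, and among SIPs SIP1-1 (AT3G04090) led with 2112 per kb.

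In WT, nitrate raised 5 aquaporins and lowered 1, and the 5 are channels of the plasma membrane and the vacuole. A gene was called in such a comparison at an adjusted p under 0.05 (Benjamini-Hochberg over the table, from the authors' DESeq2 test) with at least a 2-fold change, which is the authors' own criterion. In the whole seedling, more or fewer cells of a type and more or less RNA per cell cannot be told apart. The 5 of 33 listed members compare with 9.44% of all 22954 genes called higher, and the 1 of 33 with 5.51% called lower. The median over the 33 was -0.08 on the log2 scale, against -0.01 over all genes.

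PIP2-3 had the largest rise, 2.11 ± 0.23 on the log2 scale (SE) or 4.31-fold in the authors' deposited table (adjusted p = 5.3e-19). TIP2-1, the delta-TIP, which passes ammonia and urea as well as water, rose by 1.31 ± 0.10 in the authors' deposited table (adjusted p = 2.19e-36). PIP2-6 (AT2G39010), a water channel, rose by 1.15 ± 0.09 in the same authors' deposited table (adjusted p = 7.59e-37). Another vacuolar water channel, TIP2-2, rose by 1.12 ± 0.12 (adjusted p = 1.94e-19) and PIP1-1 (AT3G61430) by 1.11 ± 0.10 (adjusted p = 5.39e-27), both in the authors' deposited table. The gene that fell was NIP6-1 (AT1G80760), a boric acid channel of the shoot, at -1.07 ± 0.11 (adjusted p = 2.33e-23) in the authors' deposited table. NIP6-1 overlaps an antisense gene.

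Below the 2-fold line, several members had small adjusted p-values in the authors' deposited table for WT. TIP1-2 stood at 0.87 ± 0.08, TIP2-3 (AT5G47450) at 0.81 ± 0.19, PIP2-2 at 0.75 ± 0.10, NIP3-1 (AT1G31885) at 0.73 ± 0.16 and TIP1-1 at 0.62 ± 0.10 in that authors' deposited table. On the other side, NIP1-1, an arsenite channel, stood at -0.93 ± 0.09 and PIP1-5 (AT4G23400) at -0.86 ± 0.09 in the authors' deposited table. Across the family 19 of 33 members had an adjusted p under 0.05 at any size of change, a share near the 58.2% of all genes that did. The 5 PIP1 genes ranged from -0.86 for PIP1-5 to 1.11 for PIP1-1 and the 8 PIP2 genes from -0.32 for PIP2-5 (AT3G54820) to 2.11 for PIP2-3 in the authors' deposited table, so members of both subfamilies lay on either side of 0. TIPs ran from -1.36 for TIP3-2, with an SE of 1.58, to 1.31 for TIP2-1, and NIPs from -1.07 for NIP6-1 to 0.73 for NIP3-1 in the authors' deposited table. The 3 SIPs, from -0.44 for SIP1-1 to -0.26 for SIP2-1 (AT3G56950), were all below 0 in the authors' deposited table. All 3 had an adjusted p under 0.05, and none was called because none reached the 2-fold line.

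**Figure D2:**
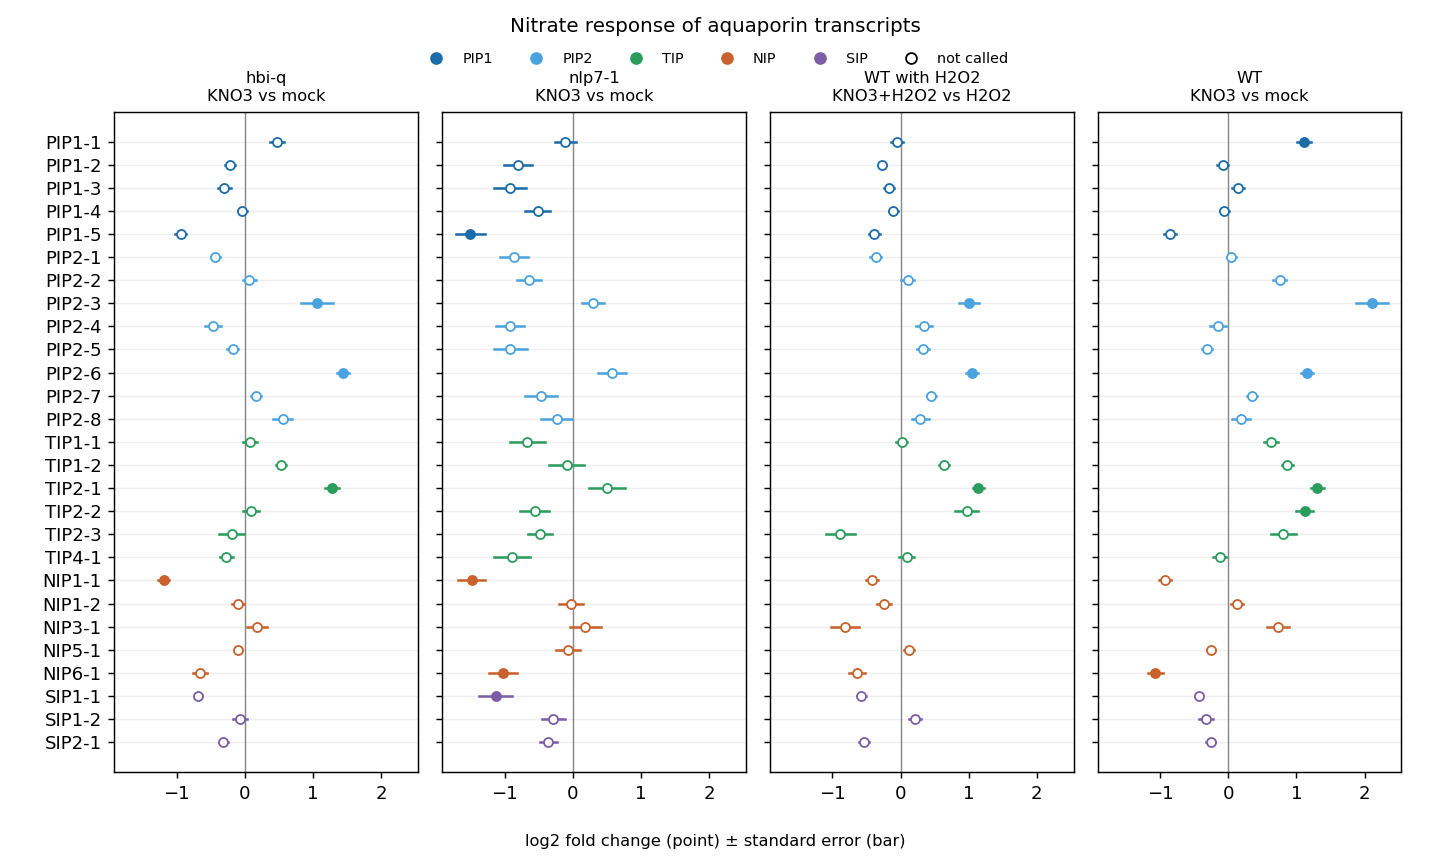
Nitrate response of the 27 aquaporins with a base mean of at least 100 in the WT and hbi-q libraries, as log2 fold change with its standard error from the authors' deposited tables, in 4 panels with 1 shared axis, for hbi-q, nlp7-1, WT with H2O2 and WT. Filled points passed an adjusted p under 0.05 with at least 2-fold, and PIP2-3, PIP2-6 and TIP2-1 are filled on the right of 0 in hbi-q, in WT with H2O2 and in WT, while no point is filled on the right in nlp7-1.

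In hbi-q, nitrate raised 3 aquaporins and lowered 2. Of the 33 listed members the 3 compare with 10.1% of all genes called higher, and the 2 with 6.06% called lower, so these shares are near those of all genes. PIP2-6 rose by 1.44 ± 0.09 (adjusted p = 5.12e-56), TIP2-1 by 1.29 ± 0.10 (adjusted p = 4.17e-35) and PIP2-3 by 1.06 ± 0.23 (adjusted p = 1.06e-05) in the authors' deposited table. NIP1-1 fell, at -1.20 ± 0.09 (adjusted p = 1.65e-43), and so did the pollen gene NIP4-2, at -1.64 ± 0.66 (adjusted p = 0.0224) on a base mean of 6.82, in the authors' deposited table. NIP4-2 was not called at an adjusted p under 0.01. Both PIP1-1 at 0.47 ± 0.10 and TIP2-2 at 0.08 ± 0.12 were below the 2-fold line in hbi-q in the authors' deposited table, and they had passed it in WT. The PIP1 genes ran from -0.95 for PIP1-5 to 0.47 for PIP1-1 and the PIP2 genes from -0.47 for PIP2-4 (AT5G60660) to 1.44 for PIP2-6 in the authors' deposited table. TIPs ran from -1.75 for TIP1-3, on a base mean of 1.06, to 1.29 for TIP2-1, NIPs from -1.64 for NIP4-2 to 0.18 for NIP3-1, and SIPs from -0.68 for SIP1-1 to -0.07 for SIP1-2 (AT5G18290) in the authors' deposited table. The family's median was -0.18, against 0.00 over all genes. Without a fold minimum, 19 of 33 members had an adjusted p under 0.05, where 58.3% of all genes did.

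The difference between the mutant's and the wild type's nitrate response was tested for each gene as the difference of log2 fold changes over the root of the summed squared SEs, with Benjamini-Hochberg adjustment over all genes in both tables. A difference was called at an adjusted p under 0.05. A lower response means a difference below 0, which can be a smaller rise, a fall in place of no change, or a larger fall. The 3 differences against WT described below share the WT response, so a chance deviation in WT enters all of them, and their values are set side by side only. For hbi-q, 10 of 33 aquaporins had a lower response than WT and 0 a higher one, where 3.49% of all 22954 genes were called lower and 2.13% higher. At an unadjusted p under 0.05 the same test gave 12 lower and 4 higher members. The share of all genes at an unadjusted p was not computed, so such counts, here and below, have no background to compare with. The median difference over the 33 was -0.18, against 0.02 over all genes.

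TIP2-2 had the strongest call, with a response of 0.08 ± 0.12 in hbi-q against 1.12 ± 0.12 in WT in the authors' deposited tables, a difference of -1.03 ± 0.17 (adjusted p = 1.88e-07). PIP2-2 differed by -0.69 ± 0.14 (adjusted p = 3.19e-05), PIP2-1 (AT3G53420), a water and H2O2 channel, by -0.48 ± 0.10 (adjusted p = 0.000138) and PIP1-1 by -0.64 ± 0.14 (adjusted p = 0.000373). The other 6 called were PIP2-3 at -1.05, TIP2-3 at -0.997, TIP1-1 at -0.55, PIP1-3 (AT1G01620) at -0.44, TIP1-2 at -0.34 and SIP1-1 at -0.24. SIP1-1 fell in both groups, at -0.68 ± 0.06 in hbi-q and -0.44 ± 0.06 in WT in the authors' deposited tables. PIP2-1 had -0.43 ± 0.07 in hbi-q and 0.05 ± 0.07 in WT, and PIP1-3 had -0.30 ± 0.09 and 0.14 ± 0.09, in the authors' deposited tables. No NIP was called, and 2 NIPs on each side of 0 had an unadjusted p under 0.05. When each test value was divided by the robust SD of that test over all genes, 1.3, 4 calls were left, namely PIP1-1, PIP2-1, PIP2-2 and TIP2-2.

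TIP2-1 did not follow TIP2-2. Its response was 1.29 ± 0.10 in hbi-q and 1.31 ± 0.10 in WT in the authors' deposited tables, a difference of -0.02 with a 95% interval from -0.31 to 0.26. PIP2-6 had 1.44 ± 0.09 in hbi-q and 1.15 ± 0.09 in WT in the authors' deposited tables, a difference of 0.28 with an interval from 0.04 to 0.53 (adjusted p = 0.206). A p above the threshold does not show that the responses were alike. TIP2-1 overlaps antisense genes in the annotation and strand is not given, so reads of the 2 strands cannot be told apart there.

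**Figure D3:**
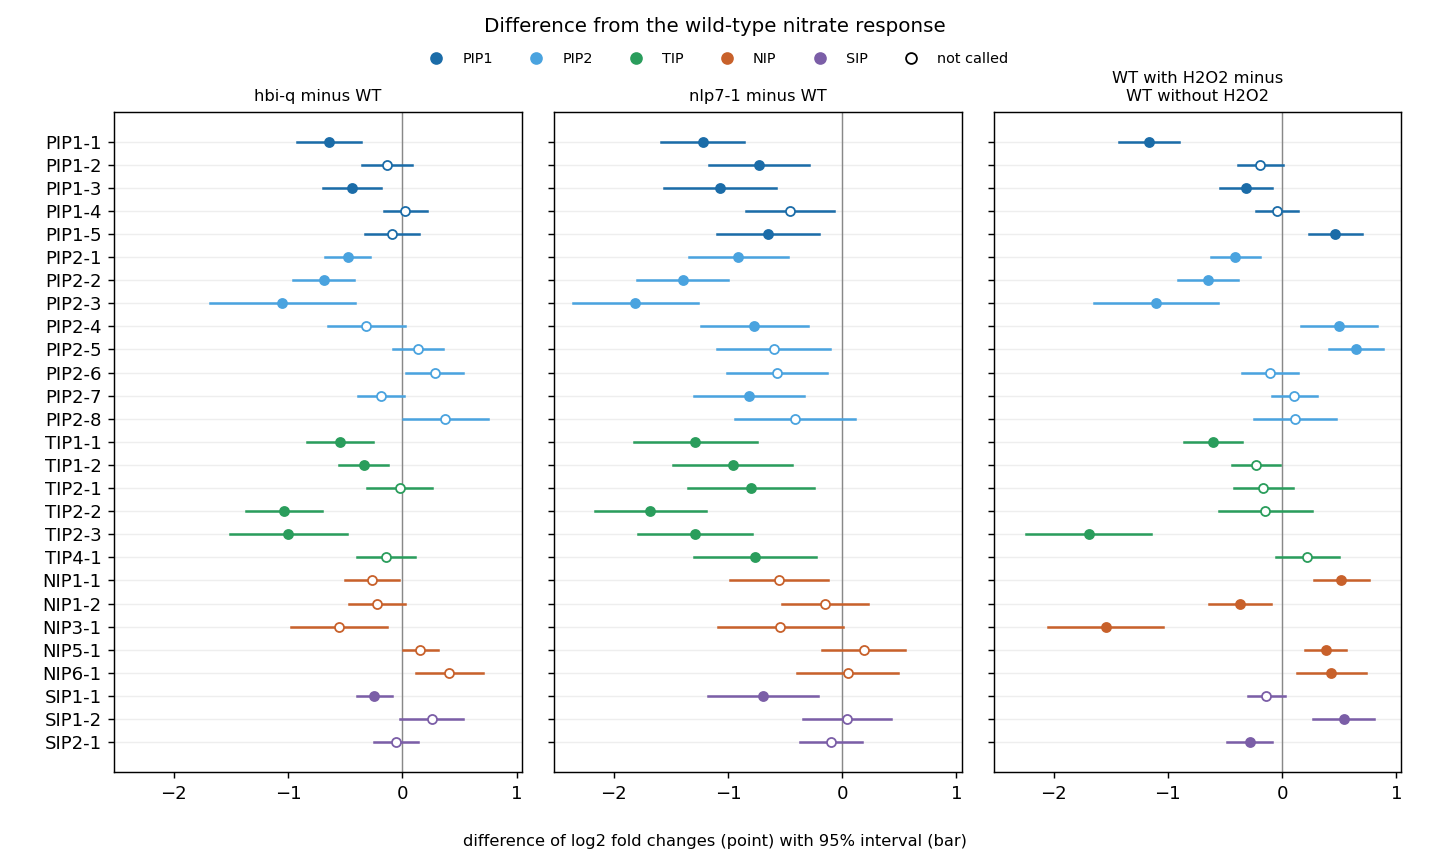
Difference of the nitrate response from that of WT without H2O2, for the same 27 aquaporins, as a difference of log2 fold changes with its 95% interval, in 3 panels with 1 shared axis for hbi-q, nlp7-1 and WT with H2O2. Filled points passed an adjusted p under 0.05, and for hbi-q and nlp7-1 all filled points (10 and 16) lie left of 0, while for WT with H2O2 they lie on both sides (10 left, 7 right).

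In nlp7-1 no aquaporin rose with nitrate and 4 fell, of 29 listed. Of all 22610 genes listed for nlp7-1, 9.03% were called higher and 6.63% lower. PIP1-5 fell the most, at -1.50 ± 0.21 (adjusted p = 1.28e-11), then NIP1-1 at -1.49 ± 0.20 (adjusted p = 4.18e-12), SIP1-1 at -1.13 ± 0.24 (adjusted p = 1.59e-05) and NIP6-1 at -1.02 ± 0.20 (adjusted p = 2.5e-06) in the authors' deposited table. The call of NIP6-1 in nlp7-1 was lost when changes were centred on the median gene, at -0.99. The highest value in the family was that of PIP2-6, 0.58 ± 0.20 (adjusted p = 0.0132), followed by TIP2-1 at 0.51 ± 0.26, in the authors' deposited table. PIP2-6 was the 1 member above 0 with an unadjusted p under 0.05 in the authors' DESeq2 test. PIP1 genes ran from -1.50 for PIP1-5 to -0.11 for PIP1-1, PIP2 genes from -0.92 for PIP2-4 to 0.58, TIPs from -0.89 for TIP4-1 (AT2G25810), a urea channel, to 0.51, NIPs from -1.49 to 0.19 for NIP3-1 and SIPs from -1.13 to -0.28 for SIP1-2 in the authors' deposited table. The median was -0.50, against 0.00 over all genes, and 25 of 29 members were below 0. Counted at an adjusted p under 0.05 without a fold minimum, 17 of 29 passed, where 42.6% of all genes did.

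Set against WT, 16 of 29 aquaporins had a lower nitrate response in nlp7-1 and 0 a higher one, where 7.38% of all 21790 genes in both tables were called lower and 4.33% higher. All 6 TIPs listed for nlp7-1 were among the 16, as were 9 of 13 PIPs and 1 of 3 SIPs, and 0 of 7 NIPs. At an unadjusted p under 0.05 the test gave 20 members with a lower response, 1 of them a NIP, and 0 with a higher one. The share of all genes at that threshold was not computed. PIP2-3 had 0.30 ± 0.16 in nlp7-1 and 2.11 ± 0.23 in WT in the authors' deposited tables, a difference of -1.81 ± 0.28 (adjusted p = 2.21e-08). TIP2-2 had -0.56 ± 0.22 in nlp7-1 and 1.12 ± 0.12 in WT in the authors' deposited tables, a difference of -1.68 ± 0.25 (adjusted p = 2.85e-09). PIP2-2 differed by -1.39 ± 0.20 (adjusted p = 1.79e-09) and PIP1-1 by -1.22 ± 0.19 (adjusted p = 1.16e-08). TIP1-1 and TIP2-3 both differed by -1.29, PIP1-3 by -1.07, TIP1-2 by -0.96, PIP2-1 by -0.91, PIP2-7 (AT4G35100) by -0.82 and TIP2-1 by -0.80. For TIP2-2, PIP2-2, TIP1-1 and TIP2-3 the signs differed with an adjusted p under 0.05 in each of the authors' deposited tables. PIP2-2 had -0.64 ± 0.18 in nlp7-1 and 0.75 ± 0.10 in WT. TIP1-1 had -0.67 ± 0.25 and 0.62 ± 0.10, and TIP2-3 had -0.48 ± 0.17 and 0.81 ± 0.19, in the same order. The smallest called differences were those of PIP2-4 at -0.77, TIP4-1 at -0.76, PIP1-2 at -0.73, SIP1-1 at -0.69 and PIP1-5 at -0.65. SIP1-1 and PIP1-5 fell further in nlp7-1, at -1.13 ± 0.24 and -1.50 ± 0.21, than in WT, at -0.44 ± 0.06 and -0.86 ± 0.09, in the authors' deposited tables. PIP2-4, TIP4-1 and PIP1-2 had -0.92 ± 0.21, -0.89 ± 0.26 and -0.81 ± 0.21 in nlp7-1 in the authors' deposited table. Their WT values were -0.15 ± 0.12, -0.13 ± 0.09 and -0.08 ± 0.08 in the authors' deposited table.

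None of these 16 was still called when the test was scaled by its robust SD over all genes, which was 1.88 and left 66 of 2552 calls among all genes. The nlp7-1 table was the least precise, with a median SE of 0.18 for genes with a base mean over 100, against 0.096 for WT. Between the mutants, the response was lower in nlp7-1 than in hbi-q for 3 of 29 members and higher for 0, where 2.32% of all genes were called lower and 1.62% higher. These were PIP2-6, with -0.86 ± 0.22 (adjusted p = 0.00784), PIP2-2 with -0.71 ± 0.20 (adjusted p = 0.0209) and PIP1-1 with -0.58 ± 0.19 (adjusted p = 0.0489). Of the 13 PIPs all had a negative difference, from -0.86 to -0.43, and the same scaling left 0 of the 3 calls. At an unadjusted p under 0.05, 16 members were lower in nlp7-1 and 0 higher, with no share of all genes computed at that threshold.

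The nitrate responses of shoot markers differed between the groups too. Of 20 genes of photosynthetic shoot tissue, 8 rose with nitrate in hbi-q, 3 in nlp7-1 and 12 in WT in the authors' deposited tables, with medians of 0.90, 0.16 and 1.04 on the log2 scale. Root markers had medians near 0 in hbi-q and WT and above 0 in nlp7-1, where the aquaporin median was -0.50. Of 20 root genes 2 rose and 1 fell in hbi-q, 1 rose and 1 fell in nlp7-1, and 2 rose and 1 fell in WT, with medians of -0.06, 0.20 and -0.01. The part of tissue composition in the aquaporin differences was not tested.

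H2O2 without nitrate lowered aquaporins of the vacuole and the plasma membrane and raised 1 NIP. The authors' deposited table for H2O2 against mock in WT lists only genes that passed the authors' criterion, so nothing can be said of the 28 aquaporins it does not list. It lists 7 of 35, with 6 lower and 1 higher. Of the 22311 genes in either of the H2O2 tables, 3.13% were lower and 4.98% higher. For these 7 the level of each group can be computed from the base mean and the fold change, if a fit held the 3 libraries of each of its 2 groups and no others. The level with H2O2 computed in this way from each of both H2O2 tables differed by a median of 0.07 on the log2 scale, and for 100% of the 1801 genes in both by that median within 0.1. Such a level is a mean without a spread.

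TIP2-2 fell the most, to 199 normalized counts with H2O2 against 864 with mock, or -2.12 ± 0.27 (adjusted p = 7.34e-14) in the authors' deposited table. TIP2-3, another tonoplast channel that passes ammonia, had 159 with H2O2 against 603 with mock, or -1.93 ± 0.15 (adjusted p = 1.19e-34), in the authors' deposited table. TIP2-1 had 661 with H2O2 against 1413 with mock, or -1.10 ± 0.10 (adjusted p = 3.66e-27), in the authors' deposited table. All 3 listed members of the TIP2 group therefore lay lower with H2O2.

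PIP2-2, a root water channel, had 1135 normalized counts with H2O2 against 3094 with mock, or -1.45 ± 0.09 (adjusted p = 4.84e-62), in the authors' deposited table. PIP2-4, a root channel that passes H2O2 in yeast, had 531 with H2O2 against 1435 with mock, or -1.43 ± 0.11 (adjusted p = 1.31e-38), in the authors' deposited table. NIP1-1 had 1177 with H2O2 against 2381 with mock, or -1.02 ± 0.09 (adjusted p = 3.19e-28), in the authors' deposited table. The gene that rose, NIP2-1, is a lactic acid channel known from roots short of oxygen. It had 58.5 with H2O2 against 24.3 with mock, or 1.27 ± 0.35 (adjusted p = 0.00123), in the authors' deposited table. NIP2-1 overlaps antisense genes in the annotation. There, 10 of 20 root genes were listed, all 10 lower, and 3 of 20 shoot genes, all 3 higher, and the part of these tissue markers in the aquaporin changes was not tested.

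**Figure D4:**
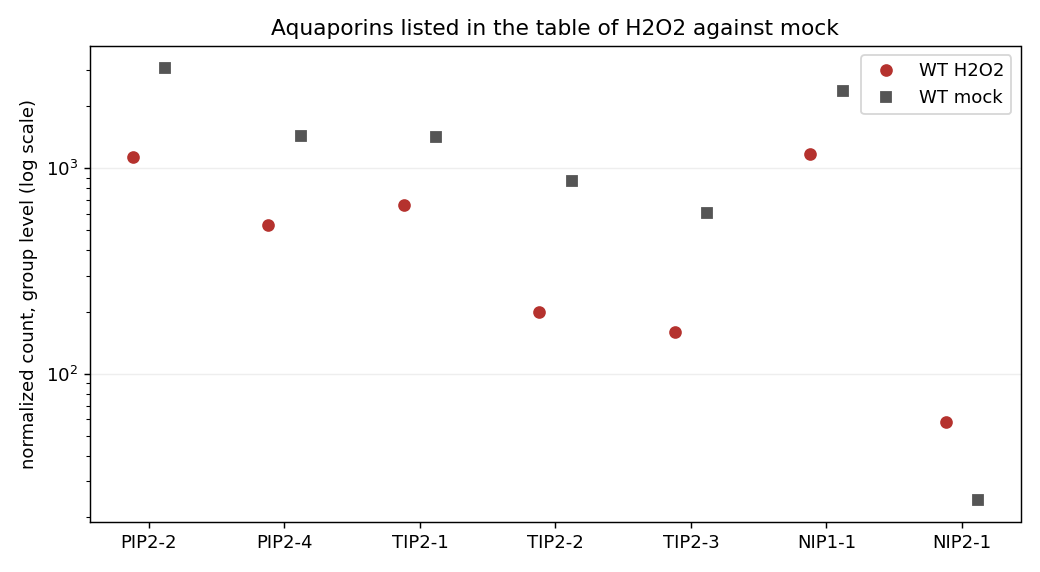
Group levels of the 7 aquaporins listed in the authors' deposited table for H2O2 against mock in WT, as normalized counts on a log scale, with circles for H2O2 and squares for mock, each computed from the base mean and fold change and so without an error bar. For 6 of the 7 the circle lies below the square, and NIP2-1 is the exception with 58.5 against 24.3.

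With H2O2 present, nitrate still raised 3 aquaporins and lowered none. The authors' deposited table for KNO3 with H2O2 against H2O2 listed 32, and the 3 compare with 6.54% of all 22302 genes called higher and the 0 with 4.14% called lower. TIP2-1 reached 1390 normalized counts with both agents against 630 with H2O2, or 1.14 ± 0.08 (adjusted p = 1.71e-41), in the authors' deposited table. PIP2-6 had 4884 with both against 2359 with H2O2, or 1.05 ± 0.09 (adjusted p = 1.51e-31), and PIP2-3 had 309 with both against 154 with H2O2, or 1.01 ± 0.15 (adjusted p = 2.17e-10), in the authors' deposited table. TIP2-2 lay just under the 2-fold line at 0.97 ± 0.17, with 371 normalized counts with both agents against 189 with H2O2 and an adjusted p of 4.22e-08 from the authors' deposited table. At an unadjusted p under 0.05, 11 members were above 0 and 11 below in the authors' DESeq2 test, with no share of all genes computed there. PIP1 genes ran from -0.39 for PIP1-5 to -0.05 for PIP1-1, PIP2 genes from -0.37 for PIP2-1 to 1.05, TIPs from -0.88 for TIP2-3 to 1.14, NIPs from -0.81 for NIP3-1 to 0.56 for NIP2-1 and SIPs from -0.57 for SIP1-1 to 0.21 for SIP1-2 in the authors' deposited table. The family median was 0.10, against 0.00 over all genes. Without a fold minimum, 21 of 32 members had an adjusted p under 0.05, where 53.3% of all genes did.

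Compared with the response without H2O2, 10 of 32 aquaporins had a lower and 7 a higher nitrate response with H2O2, where 13.4% of all 22204 genes were called lower and 11.4% higher. PIP1-1 differed the most firmly, with -0.05 ± 0.09 with H2O2 and 1.11 ± 0.10 without in the authors' deposited tables, a difference of -1.16 ± 0.13 (adjusted p = 1.38e-16). TIP2-3 had -0.88 ± 0.21 with H2O2 and 0.81 ± 0.19 without in the authors' deposited tables, a difference of -1.69 ± 0.28 (adjusted p = 3.7e-08). NIP3-1, an arsenite channel, had -0.81 ± 0.20 with H2O2 and 0.73 ± 0.16 without in the authors' deposited tables, a difference of -1.54 ± 0.26 (adjusted p = 4.03e-08). PIP2-5 and SIP1-2 differed the other way. PIP2-5 had 0.33 ± 0.09 with H2O2 and -0.32 ± 0.08 without, and SIP1-2 had 0.21 ± 0.10 with H2O2 and -0.33 ± 0.10 without, in the authors' deposited tables. For these 4, TIP2-3, NIP3-1, PIP2-5 and SIP1-2, the signs differed with an adjusted p under 0.05 in each table, though none reached 2-fold in either. SIP1-2 overlaps antisense genes.

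The others with a lower response with H2O2 were PIP2-3 at -1.10, PIP2-2 at -0.65, TIP1-1 at -0.60, PIP2-1 at -0.41, NIP1-2 (AT4G18910), known for aluminium transport, at -0.37, PIP1-3 at -0.32 and SIP2-1 at -0.28. SIP2-1 overlaps antisense genes in the annotation. Those with a higher response with H2O2 were PIP2-5 at 0.64, SIP1-2 at 0.54, NIP1-1 at 0.52, PIP2-4 at 0.50, PIP1-5 at 0.47, NIP6-1 at 0.43 and NIP5-1 (AT4G10380), the boric acid channel of root uptake, at 0.38. For NIP1-1, PIP1-5 and NIP6-1 these are responses below 0 that lay nearer to 0 with H2O2. NIP6-1 had -0.64 ± 0.11 with H2O2 and -1.07 ± 0.11 without in the authors' deposited tables. TIP2-2 differed by -0.15 with an interval from -0.55 to 0.26, and TIP2-1 by -0.17 with an interval from -0.42 to 0.09. Scaled by the robust SD over all genes, which was 1.97, only PIP1-1 was still called among the aquaporins. Of the 20 shoot genes 2 rose and 1 fell with nitrate in WT with H2O2, against 12 that rose in WT without it, with medians of -0.17 and 1.04 in the authors' deposited tables, and of the 20 root genes none was called with H2O2. The part of these tissue markers in the differences was not tested. Over all 5 pairwise comparisons and 4 differences, PIP1-4 (AT4G00430), PIP2-8 (AT2G16850), TIP1-3, TIP3-1, TIP3-2 and NIP7-1 were listed but never called. For TIP1-3, TIP3-1, TIP3-2 and NIP7-1 the SEs were too large for a 2-fold change to be called.

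Aquaporins also had other overall levels in the 3 fits. Base means were set across tables that the authors normalized separately, each relative to the median gene with a base mean over 100, and these differences carry no test. In the nlp7-1 libraries, 23 of 27 aquaporins lay above the median gene relative to the WT and hbi-q libraries, with a median of 0.37 on the log2 scale, led by TIP2-2 at 0.96 and TIP4-1 at 0.85. For the WT libraries with H2O2, 20 of 26 lay below it, with a median of -0.59, and TIP2-3 at -2.80, TIP2-2 at -2.35, PIP2-2 at -1.94 and PIP1-1 at -1.53 were the lowest of the members with a base mean over 100 in both tables. TIP2-3, TIP2-2 and PIP2-2 were also lower with H2O2 against mock, a comparison that shares the H2O2 libraries.

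**Figure D5:**
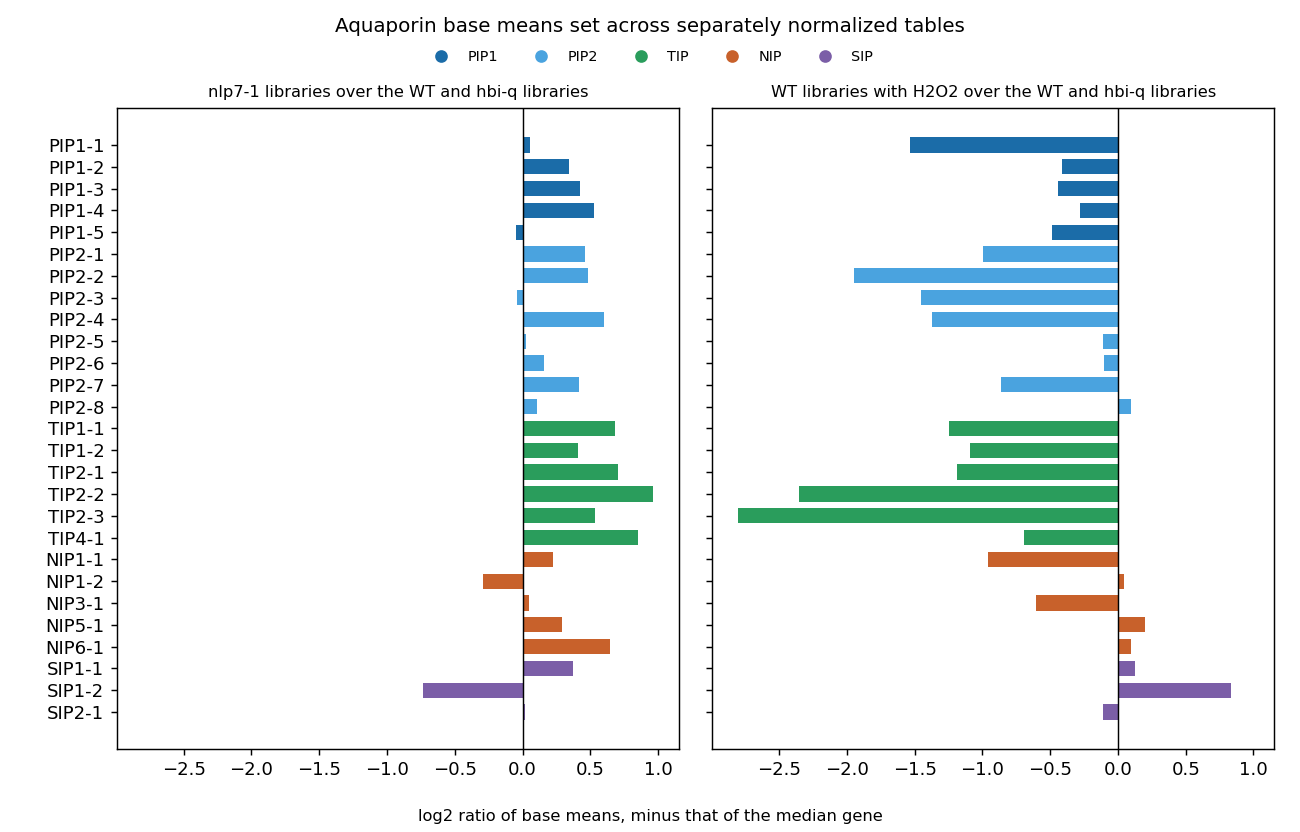
Base mean of the same 27 aquaporins in the nlp7-1 libraries (left) and in the WT libraries with H2O2 (right), each divided by that in the WT and hbi-q libraries, as a log2 ratio minus that of the median gene, from the authors' deposited tables, with no error since no test was made. Most bars lie right of 0 for nlp7-1 (23 of 27) and left of 0 with H2O2, where the lowest is TIP2-3 at -2.80.

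Root markers shifted the same way as aquaporins. The 20 root genes had a median ratio of 0.48 in the nlp7-1 libraries, with 16 above the median gene, and of -0.99 in the WT libraries with H2O2, with 17 below it. Their summed base means were 8405 in the nlp7-1 libraries and 3483 with H2O2, against 6202 in the WT and hbi-q libraries. The 20 shoot genes had -0.98 in the nlp7-1 libraries and 0.14 with H2O2, and summed base means of 50258 and 78772, against 74984. Their part in the aquaporin levels was not tested.

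Seed genes stood apart in the same ratios. The seed vacuole channels TIP3-1 and TIP3-2 were at 1.52 and 1.58 with H2O2, or 2.86-fold and 2.99-fold, and 12 of 12 seed markers were above the median gene there with a median of 1.58. NIP2-1, at 1.73, had the highest ratio in the family with H2O2. Its base mean was 68.7 in the authors' deposited table for KNO3 with H2O2, against 21.1 over the WT and hbi-q libraries. In the nlp7-1 libraries, 5 of 5 seed markers present in both tables were below the median gene, with a median of -5.27 and summed base means of 15.3 against 537 in the WT and hbi-q libraries, and TIP3-1 and TIP3-2 were not listed there. In hbi-q 7 of 12 listed seed genes were called lower with nitrate in the authors' deposited table, where 6.06% of all genes were. The SEs of these 7 ran from 0.70 to 2.45 on the log2 scale, on base means from 8.64 to 188. The spread between the libraries behind them cannot be shown. TIP3-1 had -0.61 ± 0.72 and TIP3-2 -1.43 ± 1.83 in hbi-q, and neither was called.

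Genes known to act on aquaporins were counted in the same way. Of 13 regulators and trafficking genes 0 rose in any of the 4 nitrate comparisons, and 1 fell in hbi-q, 3 in nlp7-1, 1 in WT with H2O2 and 2 in WT, in the authors' deposited tables. Over all genes, in the same order, 6.06%, 6.63%, 4.14% and 5.51% were called lower and 10.1%, 9.03%, 6.54% and 9.44% higher. At an unadjusted p under 0.05 in the authors' DESeq2 test, 2 were above 0 in hbi-q, 1 in nlp7-1, 1 in WT with H2O2 and 2 in WT, and 11, 8, 9 and 9 were below 0. No share of all genes was computed at that threshold. The 1 regulator listed for H2O2 against mock in WT was the plasma membrane syntaxin SYP122 (AT3G52400), which rose by 1.26 ± 0.09 (adjusted p = 4.1e-44) in the authors' deposited table. XND1 (AT5G64530), a NAC factor that lowers root hydraulic conductivity, fell in all 4, with -1.98 ± 0.21 in hbi-q, -1.92 ± 0.25 in nlp7-1, -1.76 ± 0.19 in WT with H2O2 and -1.83 ± 0.19 in WT in the authors' deposited tables. The syntaxin SYP121, which delivers PIPs to the plasma membrane, fell by 1.19 ± 0.19 in nlp7-1 and the RING ligase gene RMA3 had -1.41 ± 0.25, in the authors' deposited table. TSPO, known for the turnover of PIP2-7, had -1.61 ± 0.60 in WT in the authors' deposited table on a base mean of 8.06.

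The boron exporters, which work beside the boric acid channels NIP5-1 and NIP6-1, were measured for 4 genes. BOR5 (AT1G74810) fell in all 4 nitrate comparisons, with -3.11 ± 0.09 in hbi-q, -2.75 ± 0.11 in nlp7-1, -2.19 ± 0.08 in WT with H2O2 and -3.34 ± 0.09 in WT in the authors' deposited tables. NIP5-1 had -0.10 ± 0.06 in hbi-q, -0.07 ± 0.18 in nlp7-1, 0.13 ± 0.07 in WT with H2O2 and -0.25 ± 0.06 in WT in the authors' deposited tables. BOR1, which loads boron into the xylem, rose in hbi-q, at 1.01 ± 0.08, and BOR4 fell with H2O2 at -1.25 ± 0.24 in the authors' deposited tables. The rise of BOR1 lay just past the 2-fold line, and whether it differed from the response in WT is not given here.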

How the data were processed

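Seedling mRNA was sequenced on a BGISEQ-500 in 24 libraries, 3 in each of 8 groups assigned from the labels. Per the submitters' processing notes, the authors used HISAT and Bowtie2 with TAIR10, HTSeq and DESeq2, and the sources used here give no versions, strand or library depth. The files analysed here are 5 tables, 1 for each comparison. Per the file headers, the authors deposited for each gene a base mean, a signal averaged over normalized counts. Fold changes and their standard errors were deposited on the log2 scale. The deposited test score equalled the log2 fold change over its standard error when checked, and the deposited p-values come with adjusted ones. The sources used here do not give which libraries entered a fit, except that WT and hbi-q share every base mean.

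No count model was fitted here, since no values per library were analysed. Differences of responses were computed in Python 3.11.15 with pandas 2.3.3, NumPy 2.4.6 and SciPy 1.17.1. That test was also run on simulated data with normal noise of the size of the deposited standard errors. The real test values spread more widely, with robust SDs from 1.3 to 1.97, so the simulation cannot give the error rate here. The authors' p-values measure the spread between libraries that the labels call biological replicates. Those of the differences combine the SEs of 2 comparisons. Except for hbi-q against WT, the 2 were normalized separately, and variation between the fits does not enter these p-values. The 35 members and the gene lists were chosen with earlier results of these data known. Named with values were members called in any comparison or difference, the highest and lowest of each subfamily, members not listed, and the called genes of the regulator and boron exporter lists. Tissue and seed markers are given as counts. QSK1, HCR1, BOR3, BOR6 and BOR7 were left out because the reference does not give these names for the loci listed. Sequences, lengths and positions are from the RefSeq annotation of TAIR10.1, which had all 35 loci, 34 of them with the systematic name, and Biopython 1.88 aligned the coding sequences. Of the 35, 8 overlap an antisense gene. Alternatives tried were other thresholds, a base mean minimum of 10, centring on the median gene and scaling by the robust SD.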

Additional observations from a re-analysis of the deposited data

Results flagged for a closer look

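Nitrate responses that differed between groups by the test of the difference itself are given here as differences of log2 fold changes. A lower response is a difference below 0, also where nitrate lowered the gene. The response was lower in hbi-q than in WT for PIP1-1 (-0.64), PIP1-3 (-0.44), PIP2-1 (-0.48), PIP2-2 (-0.69), PIP2-3 (-1.05), TIP1-1 (-0.55), TIP1-2 (-0.34), TIP2-2 (-1.03), TIP2-3 (-0.997) and SIP1-1 (-0.24). In nlp7-1 it was lower than in WT for PIP1-1 (-1.22), PIP1-2 (-0.73), PIP1-3 (-1.07), PIP1-5 (-0.65), PIP2-1 (-0.91), PIP2-2 (-1.39), PIP2-3 (-1.81), PIP2-4 (-0.77), PIP2-7 (-0.82), TIP1-1 (-1.29), TIP1-2 (-0.96), TIP2-1 (-0.80), TIP2-2 (-1.68), TIP2-3 (-1.29), TIP4-1 (-0.76) and SIP1-1 (-0.69).

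With H2O2 the nitrate response of WT was lower than without H2O2 for PIP1-1 (-1.16), PIP1-3 (-0.32), PIP2-1 (-0.41), PIP2-2 (-0.65), PIP2-3 (-1.10), TIP1-1 (-0.60), TIP2-3 (-1.69), NIP1-2 (-0.37), NIP3-1 (-1.54) and SIP2-1 (-0.28), and it was higher for PIP1-5 (0.47), PIP2-4 (0.50), PIP2-5 (0.64), NIP1-1 (0.52), NIP5-1 (0.38), NIP6-1 (0.43) and SIP1-2 (0.54). Between the mutants it was lower in nlp7-1 than in hbi-q for PIP1-1 (-0.58), PIP2-2 (-0.71) and PIP2-6 (-0.86). The first 3 sets share the WT response, and only PIP1-1, PIP2-1, PIP2-2 and TIP2-2 in hbi-q and PIP1-1 in WT with H2O2 were still called after division by the robust SD of the test. No explanation was tested.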

How the results depend on the processing

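No paired analysis was possible because no values per library were analysed here, and leaving out single replicates was not run for the same reason. Without a fold minimum, the aquaporins called numbered 19 in hbi-q, 17 in nlp7-1, 21 in WT with H2O2 and 19 in WT, against 5, 4, 3 and 6 with it. At an adjusted p under 0.01, differences called numbered 6 of the 10 for hbi-q against WT, 9 of the 16 for nlp7-1 against WT and 1 of the 3 for nlp7-1 against hbi-q. With at least a 2-fold difference they numbered 2, 7 and 0, and 4 of the 17 for WT with H2O2 against without. With the robust SD they numbered 4 for hbi-q against WT, 0 for nlp7-1 against WT, 1 for WT with H2O2 against without and 0 for nlp7-1 against hbi-q. The robust SD was 1.3 for hbi-q against WT and 1.88 for nlp7-1 against WT. It was 1.97 for WT with H2O2 against without and 1.6 for nlp7-1 against hbi-q. Each is above 1, so the test values over all genes spread more widely than the standard errors alone give, and fewer calls are left. Whether true differences or standard errors that are too small make this spread was not tested. Among aquaporin values past the adjusted p of 0.05 in their comparison or difference, which were the values rerun for single genes, no direction turned round. Of these, 116 had the same call after centring on the median gene, and 6 lost it, namely NIP6-1 in nlp7-1 at -0.99, PIP1-5 at -0.60, TIP2-1 at -0.75, TIP4-1 at -0.71 and SIP1-1 at -0.64 for nlp7-1 against WT, and PIP1-1 at -0.53 for nlp7-1 against hbi-q. At an adjusted p under 0.01 with at least 2-fold, 1 call was lost, that of NIP4-2 in hbi-q. For H2O2 against mock, the base mean minimum and the centring could not be run, because that table lists called genes only. TIP1-3 and TIP3-2 have low base means and standard errors above 1 in hbi-q and in WT, so a 2-fold change was not detectable there. TIP3-1, NIP4-2 and NIP7-1 have standard errors from 0.66 to 0.72 in hbi-q and in WT, also too large for a 2-fold change to be called. NIP4-2 in hbi-q has no value with the base mean minimum of 10.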
